A study of Rattus norvegicus with 8 samples.

Results

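Lung gene expression was compared between smoke-exposed rats that afterwards received mesenchymal stem cells (MSCs) and smoke-exposed rats left without that treatment. The comparison rests on 4 of the 8 arrays of the series, 2 per group, which were chosen by their sample titles. All rats were male, and the rats of both groups had been kept in a smoking chamber for 12 weeks. In the MSC group, about 2500000 MSCs of human umbilical cord were then delivered into the trachea in week 13. The labels give no vehicle for the untreated smoke group, and they state neither strain, age, smoke dose nor the time between treatment and tissue collection. Whether the 2 replicates come from different rats is not stated either, and p values then reflect only how these samples vary, which may be technical. The other arrays, 2 of naive rats that breathed normal air and 2 of smoke-exposed rats given the extracellular vesicles (EVs) of 2500000 such MSCs, entered the fit to estimate the spread. Each array held Cy3-labelled cDNA from 200 ng of RNA out of 30 mg of lung, and its probes are rat sequences, so transcripts of the human cells were not measured as such. All arrays lie on 1 slide and come from 1 scan, and since each group fills 1 column of the slide, column and group cannot be told apart.

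Cigarette smoke carries oxidants and aromatic hydrocarbons into the airways. Lung cells answer through NRF2, which drives antioxidant enzymes, through the aryl hydrocarbon receptor, and through NF-kB, a family of transcription factors (RelA and p50 among them) that inhibitors hold in the cytoplasm until kinases release them. NF-kB drives neutrophil chemokines such as Cxcl1, while interferons act through STAT and IRF factors on elements in the promoters of antiviral genes. MSCs are stromal cells studied as a treatment because they release factors that act on immune, epithelial and endothelial cells.

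The promoters of 3 genes that fell in the MSC group are shown, because each holds a letter match to the element of its pathway within the 250 bases before its RefSeq start site (GRCr8). Both strands were searched, with short letter forms that were chosen after matches to longer ones had been seen. Capitals mark GGGNNTTTC, a form of the NF-kB element, in Cxcl1 (chr14:17479322-17479571, minus strand), which encodes a neutrophil chemokine. In Oas1a (chr12:41330216-41330465, plus strand), which encodes an antiviral oligoadenylate synthetase, and in Ifi27 (chr6:128355062-128355311, plus strand), an interferon-induced gene, they mark GAAANNGAA, a form of the interferon-stimulated response element. The matches begin 101 and 84 bases before the start site in Cxcl1, 41 and 35 bases before it in Oas1a, where they overlap, and 169 and 84 bases before it in Ifi27.
Cxcl1: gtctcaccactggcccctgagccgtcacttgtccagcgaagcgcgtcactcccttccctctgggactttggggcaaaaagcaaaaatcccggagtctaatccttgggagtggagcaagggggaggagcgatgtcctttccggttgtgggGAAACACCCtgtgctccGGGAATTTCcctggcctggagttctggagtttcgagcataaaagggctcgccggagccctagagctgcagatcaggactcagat
Oas1a: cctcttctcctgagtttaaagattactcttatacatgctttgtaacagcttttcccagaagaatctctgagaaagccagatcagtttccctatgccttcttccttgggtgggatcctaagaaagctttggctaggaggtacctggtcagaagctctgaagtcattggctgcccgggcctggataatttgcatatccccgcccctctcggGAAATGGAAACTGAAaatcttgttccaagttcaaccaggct
Ifi27: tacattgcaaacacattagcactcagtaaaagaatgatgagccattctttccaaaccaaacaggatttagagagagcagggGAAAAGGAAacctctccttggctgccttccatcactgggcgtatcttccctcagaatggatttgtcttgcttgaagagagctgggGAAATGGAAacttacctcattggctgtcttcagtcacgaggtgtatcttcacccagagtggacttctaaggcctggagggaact
The NF-kB form was found in 3.7% of 33469 RefSeq promoters of this length and the interferon form in 8.12%. A match is a description of the letters and does not show binding.

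Levels are log2 signals relative to the 75th percentile of the same array, so each unit is a doubling, and higher or lower means so against the rest of the array. The scale matters here, because the smoke arrays were far brighter than the MSC arrays. That percentile lay at a signal of 3312 and 2725 in the smoke group but 250.1 and 264.3 in the MSC group, an 11.7-fold ratio of geometric means, whereas the signal of the kit's E1A control RNAs was 0.722 times as high in the smoke as in the MSC group. On the percentile scale 15253 of 25980 features, or 58.7%, passed limma's test (Benjamini-Hochberg adjusted p below 0.05) in MSC against smoke: 10929 were higher (42.1%) and 4324 lower (16.6%) in the MSC group, and the median difference was 0.68. On the E1A scale 203 features were higher (0.781%) and 22976 lower (88.4%), 89.2% in all, and the median was -3.33. The change of scale moves every difference of MSC against smoke lung by the same -4.02. A higher call of a smaller size therefore turns, as 10103 of the 10929 did, and no lower call can, so a sign on the E1A scale is no separate test of a gene. Quantile normalization called 53.9% of features, 26.6% higher and 27.3% lower, cyclic loess 56.2%, 27.2% higher and 29.1% lower, and the normexp background correction 75.4%, 54.0% higher and 21.4% lower. Under these 3 and the percentile scale alike, the 4 scalings below, 3042 features were called lower (11.7%) and 6364 higher (24.5%). Among genes given below with a fall, Nfkb1, Traf2, Csf2, Csf3r, Fpr1, Emcn, Bmp6, Tgfb1, Areg, Fbn1, Loxl2 and Keap1 were well above background on 1 of the 2 MSC arrays. Counts of list members called on the percentile scale are to be read beside the 42.1% higher and 16.6% lower of all features. Whether the brightness gap has a part in the differences was not tested.

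**Figure D1:**
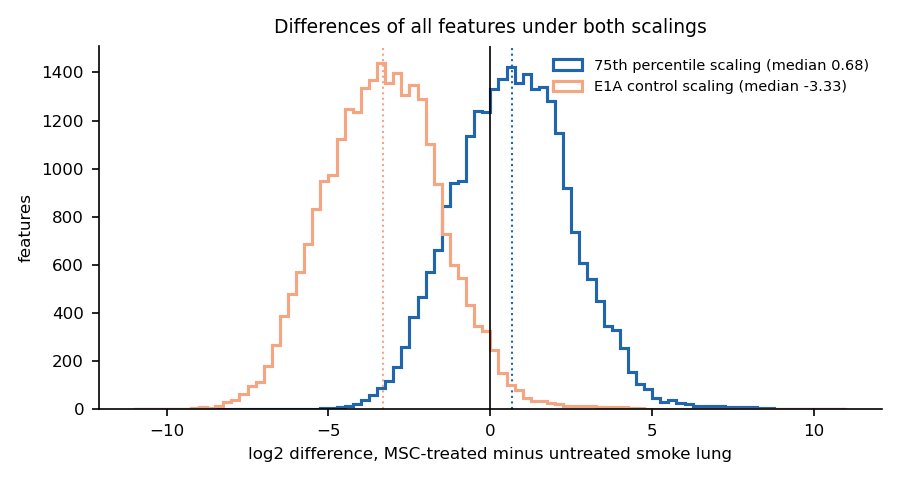
Histograms of the log2 difference between MSC-treated and untreated smoke lung over 25980 features, with 75th percentile scaling (blue) and E1A control scaling (orange). Dotted lines mark the medians, 0.68 and -3.33, and the black line marks 0.

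Of the genes of NF-kB signalling, 19 of 22 were measured: 5 were lower, 3 higher and 11 not called, with a median difference of -0.55 beside 0.68 over all features. Rela, which encodes the activating subunit RelA, stood at 0.45 and 0.09 in smoke lung and at -2.70 and -2.34 in MSC lung. The groups did not overlap, as was the case for 80.0% of all features, and Rela fell by 2.79 (SE 0.31, adjusted p = 0.000365). Its naive levels were -2.0 and -2.38 and its EV levels -1.81 and -2.01. Nfkb1, the gene of the p50 subunit, fell by 3.02 (SE 0.62, adjusted p = 0.00465), although a dimmer probe of it differed by -0.09. Ripk1, a kinase below the TNF receptor, stood at -0.71 and -0.83 in smoke and at -2.16 and -2.24 in MSC lung, and fell by 1.43 (SE 0.26, adjusted p = 0.00283). Traf2, an adaptor of the same receptor, and Nfkbib, an inhibitor of NF-kB, fell by 2.61 and 1.10. These 5 lower calls held under all 4 scalings, and of the higher ones Map3k7 did. Quantile normalization and loess each gave 10 lower calls and 1 higher, and normexp 13 and 2. The 3 higher calls, the adaptor Myd88 and the kinases Map3k7 and Irak4, were 1.11, 2.15 and 0.90 higher on the percentile scale and -2.91, -1.86 and -3.12 on the E1A scale, where all 19 members were lower. A second Map3k7 probe differed by -2.72, and the Myd88 call was lost without either smoke array (adjusted p = 0.103 and 0.0818) or without MSC replicate 1 (0.108). It was lost too with normexp (0.13, adjusted p = 0.606), quantile (0.52, 0.160) and loess processing (0.50, 0.189). Without smoke replicate 1 the list had 3 lower and 1 higher call, and without smoke replicate 2 it had 1 higher call. Prkcz, an atypical protein kinase C that can act on RelA, differed by -0.64 (SE 0.28, adjusted p = 0.0774) with a second probe at -1.51. It was called lower with normexp (-0.99, adjusted p = 0.0016), quantile (-0.98, 0.015) and loess processing (-1.03, 0.0095).

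Cytokines, chemokines and their receptors split between both directions: of 34 measured members of 43, 12 were lower, 8 higher and 14 not called, with a median of -0.01. That split depends on the scaling: quantile normalization and loess each gave 16 lower and 4 higher calls (medians of -0.85 and -0.96), and normexp 10 and 11. Cxcl1 had the largest fall of this list. It stood at 0.52 and -0.21 in smoke lung, -3.53 and -3.97 in MSC lung, -1.64 and -1.66 in EV lung and -2.58 and -2.69 in naive lung. The MSC arrays were the lowest of all 8, and the fall from smoke was 3.91 (SE 0.33, adjusted p = 0.000236). Il33, an epithelial and endothelial alarmin, was at 2.35 and 2.15 in smoke lung against -1.18 and -1.06 in MSC lung, and also lowest on the MSC arrays (EV 0.58 and 0.29, naive 0.25 and -0.41). It fell by 3.37 (SE 0.32, adjusted p = 0.000257), while Il1rl1, which encodes its receptor, was 1.99 higher (adjusted p = 0.00598) and not called with quantile normalization (0.70) or loess (0.74). Ccl5, a chemoattractant of T cells, went from 3.84 and 2.51 in smoke to -0.08 and -0.58 in MSC lung and fell by 3.51 (adjusted p = 0.00305). Csf1, the macrophage growth factor, fell by 2.76, though a second probe differed by 0.07. Ccl3 fell by 2.18, Il1a by 2.94 and Il18 by 1.13. Together with Cxcl1, Il33 and the receptor gene Il6r, these were the 8 members of the list called lower under all 4 scalings.

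Other inflammatory ligands did not share that direction. Il1b stood at -0.03 and -1.11 in smoke and at 0.23 and 0.98 in MSC lung, and was 1.18 higher (SE 0.42, adjusted p = 0.0426). Tnf stood at -1.54 and -1.69 against -0.13 and -0.92 and was 1.09 higher (SE 0.39, adjusted p = 0.0435), with a second probe at -0.95. Both calls sat near the threshold and were lost with normexp, quantile and loess processing: Il1b to adjusted p of 0.598, 0.143 and 0.205, and Tnf to 0.175, 0.129 and 0.150. Il1b was also lost without smoke replicate 2 (0.253) or MSC replicate 2 (0.183), and Tnf without either smoke array (0.118 and 0.145) or MSC replicate 1 (0.195). On the E1A scale they were at -2.83 and -2.92. Ccl2, the monocyte chemoattractant, was at -3.69 and -4.34 in smoke and -4.21 and -2.72 in MSC lung. The groups overlapped and it was not called (0.54, SE 0.66, adjusted p = 0.505). Normexp called it higher (0.92, adjusted p = 0.00598), and quantile (-0.20) and loess processing (-0.42) did not call it. Csf3, the neutrophil growth factor, rose from -5.44 and -4.46 to -0.07 and -1.44, by 4.20 (SE 0.52, adjusted p = 0.000547), and stood at 0.18 on the E1A scale. The NF-kB form lay in 2 of 9 lower members with a listed promoter (Cxcl1 and Csf2), 2 of 6 higher ones and 5 of 12 not called. Without smoke replicate 1 the list had 7 lower calls and without smoke replicate 2 it had 5 higher calls; under E1A scaling 31 members were lower and 0 higher.

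**Figure D2:**
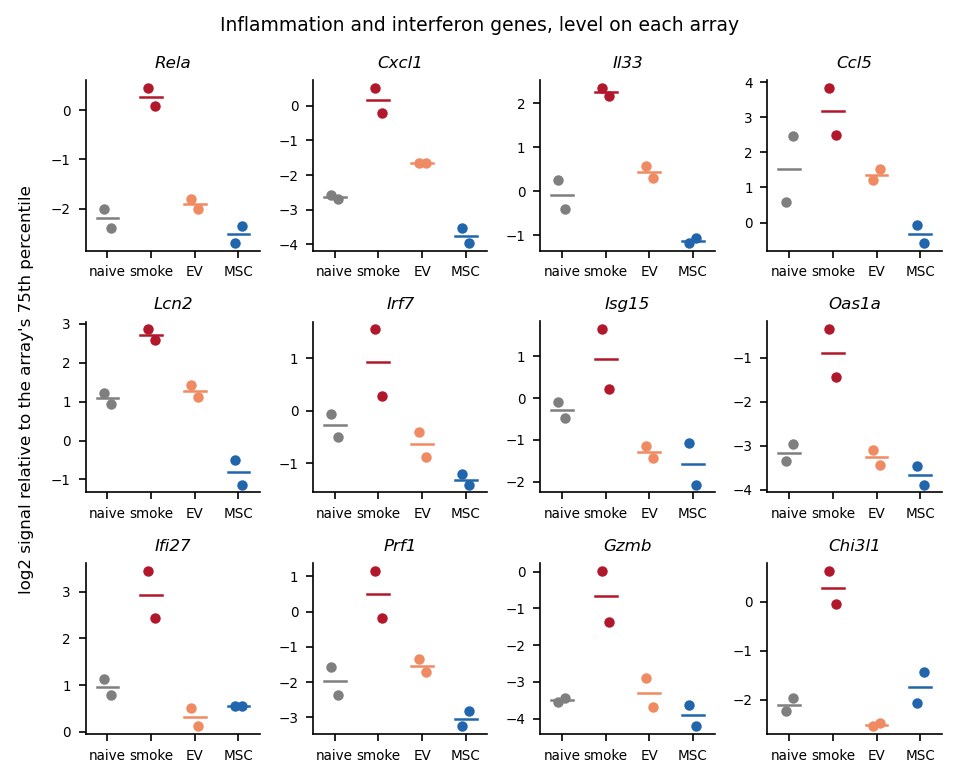
Level of 12 inflammation and interferon genes on each of the 8 arrays, as log2 signal relative to the 75th percentile of the array; points are arrays and lines are means of 2. In each panel both smoke arrays lie above both MSC arrays, and for Cxcl1, Il33, Lcn2 and Prf1 both MSC arrays are the lowest of the 8.

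Interferon response genes moved both ways on the percentile scale: of 25 measured members of 30, 10 were lower, 9 higher and 6 not called, and the median was -0.42. Beside them, 16.6% of all features were lower and 42.1% higher. Quantile normalization, loess and normexp each gave 13 lower and 4 higher calls. Irf7, the master regulator of type I interferon genes, fell by 2.23. Isg15, a ubiquitin-like protein, went from 1.65 and 0.21 in smoke to -1.07 and -2.07 in MSC lung and fell by 2.50 (SE 0.53, adjusted p = 0.00521). Oas1a, whose promoter is shown above, stood at -0.35 and -1.42 in smoke and at -3.47 and -3.89 in MSC lung. Its fall of 2.79 (SE 0.41, adjusted p = 0.00106) was shared by its second probe, at -3.79. Ifi27 stood at 3.45 and 2.43 in smoke, 0.56 and 0.55 in MSC lung, 0.50 and 0.12 in EV lung and 1.12 and 0.78 in naive lung, and fell by 2.39 (SE 0.39, adjusted p = 0.0016). The smoke arrays were high and the other 6 arrays close together for this gene. The antiviral genes Ifitm3, Isg20 and Mx1 fell by 3.35, 2.25 and 1.54. Oas1k was not well above background on either MSC array and was at least 13.0-fold lower, a bound on the percentile scale.

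The higher members included Irf8, a factor of myeloid cells, at -5.16 and -5.21 in smoke and -2.06 and -0.96 in MSC lung (3.68, SE 0.39, adjusted p = 0.000344), and Oas2, at -5.13 and -5.32 against -2.80 and -3.19 (2.23, SE 0.29, adjusted p = 0.00065). Both were dim on the smoke arrays, and on the E1A scale they were at -0.34 and -1.79. Mx2 and Stat2 were also higher, by 2.19 and 1.46, and were -1.82 and -2.55 on the E1A scale. Of the lower members, 9 held under all 4 scalings, among them Irf7, Isg15, Isg20, Ifi27, Ifitm3 and Oas1a, and of the 9 higher ones Irf8, Oas2 and Mx2 did. A promoter was listed for 6 of the 10 lower members, and 5 of them held the interferon form (Irf7, Ifi27, Ifitm3, Isg20 and Oas1a); it was found in 4 of the 7 higher members with a promoter and in 2 of the 4 members not called. Higher calls numbered 5 without either smoke array and 4 without MSC replicate 1.

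Markers of immune cells were called in both directions. In tissue RNA, fewer cells of a type and less RNA per cell cannot be told apart. The cytotoxic lymphocyte list had the lowest median of the 16 main lists, at -1.5: of 11 measured markers of 15, 7 were lower, 1 higher and 3 not called. Prf1, which encodes the pore-forming perforin, was at 1.16 and -0.18 in smoke and -3.25 and -2.82 in MSC lung, and fell by 3.53 (SE 0.49, adjusted p = 0.000861). Gzmb, the gene of granzyme B, was at 0.03 and -1.37 against -3.62 and -4.21, and fell by 3.24 (SE 0.51, adjusted p = 0.00138), and by 2.63 with its second probe. Gzmk, Gzma and Nkg7 fell by 2.99, 1.45 and 1.5. Cd8b, a chain of the CD8 coreceptor, was 2.40 higher (adjusted p = 0.00743) and -1.62 on the E1A scale, and was called higher under all 4 scalings. Cd8a, the other chain, was at least 6.42-fold lower on the percentile scale and not well above background on either MSC array. It was not called lower under all 4 scalings. Quantile normalization and loess each gave this list 8 lower and 1 higher call, and normexp 6 and 4. The 2 smoke arrays differed from each other here, with a summed marker signal of 12.6 and 4.72 times the 75th percentile against 3.07 and 2.16 on the MSC arrays, and without smoke replicate 1 or MSC replicate 1 the list had 3 lower calls. Of 13 measured T cell markers, 5 were higher and 1 lower, a higher share near the 42.1% of all features. Their summed signal was 3.86 and 2.57 in smoke against 7.67 and 11.3 in MSC lung. Under E1A scaling 12 of these 13 were lower.

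Among 12 measured neutrophil markers of 19, Lcn2, which encodes an iron-binding protein of neutrophils and injured epithelium, stood at 2.86 and 2.57 in smoke and at -0.49 and -1.13 in MSC lung. It fell by 3.52 (SE 0.33, adjusted p = 0.000251), to below its EV (1.44 and 1.12) and naive (1.21 and 0.95) levels. The receptor genes Csf3r and Fpr1 fell by 1.29 and 1.22, but neither was called lower under all 4 scalings. Ncf1, a subunit of the oxidase that makes superoxide, was 2.24 higher (adjusted p = 0.00146) and 1.63 higher with its second probe, and S100a9, a calcium-binding protein of neutrophils, 1.70 higher (adjusted p = 0.0365). On the E1A scale Ncf1 was at -1.78 and S100a9 at -2.32. The S100a9 call was lost without either smoke array (0.072 and 0.155) and without MSC replicate 2 (0.188), and with normexp (0.70, adjusted p = 0.224), quantile (1.11, 0.176) and loess processing (1.08, 0.194). The neutrophil median was -0.80 with 3 lower and 2 higher calls. Quantile normalization and loess each gave 6 lower and 1 higher, and normexp 2 and 4; without smoke replicate 1 each direction had 1. There was 1 lower call without MSC replicate 1, and 1 higher call without smoke replicate 2 or MSC replicate 2. Defa5 and Np4, 2 defensin genes, were not well above background on the MSC arrays and were at least 58.0-fold and 32.8-fold lower than in smoke lung, but their EV levels spread widely (Defa5 at -0.31 and -3.46), and Np4 was lost without smoke replicate 1 (adjusted p = 0.0759) or MSC replicate 1 (0.0533).

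Of 21 measured macrophage markers of 23, 5 were lower, 6 higher and 10 not called, with a median of 0.25, and quantile normalization gave 8 lower and 3 higher calls. Chi3l1, a chitinase-like protein of activated macrophages and epithelium, was at 0.63 and -0.05 in smoke and -2.06 and -1.43 in MSC lung, and fell by 2.04 (SE 0.35, adjusted p = 0.00218). Cd68, a lysosomal marker of macrophages, was at 1.53 and 1.14 against -0.07 and -0.42 and fell by 1.58 (SE 0.31, adjusted p = 0.00376). Fabp5 and Gpnmb, genes of lipid-laden macrophages, fell by 2.11 and 1.67. The scavenger receptor gene Cd163 was at -4.50 and -4.30 in smoke and at -1.75 and -0.47 in MSC lung, 3.29 higher (SE 0.47, adjusted p = 0.000951), and Mertk, a receptor for the uptake of dying cells, was 1.99 higher. Both were dim in smoke and turned to -0.73 and -2.03 on the E1A scale. Without smoke replicate 1 the list had 3 lower calls, and without either smoke array it had 3 higher calls. In the class II presentation list 10 of 13 measured genes were not called on the percentile scale, 1 was lower and 2 were higher. Quantile normalization and loess each gave 3 lower and 2 higher calls, and normexp 7 and 3. RT1-Da, an MHC class II chain, stood at 2.62 and 2.38 in smoke and at -0.69 and 1.71 in MSC lung, so the MSC arrays lay further apart than the groups at their nearest. It fell by 1.99 (SE 0.70, adjusted p = 0.0417), a call lost without either smoke array (0.148 and 0.0981) or MSC replicate 1 (0.161); without MSC replicate 2 the list had 5 lower calls. The costimulatory genes Cd40 and Cd80 were higher by 2.50 and at least 36.3-fold. Both were higher under all 4 scalings, and Cd40 was at -1.51 on the E1A scale.

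**Figure D3:**
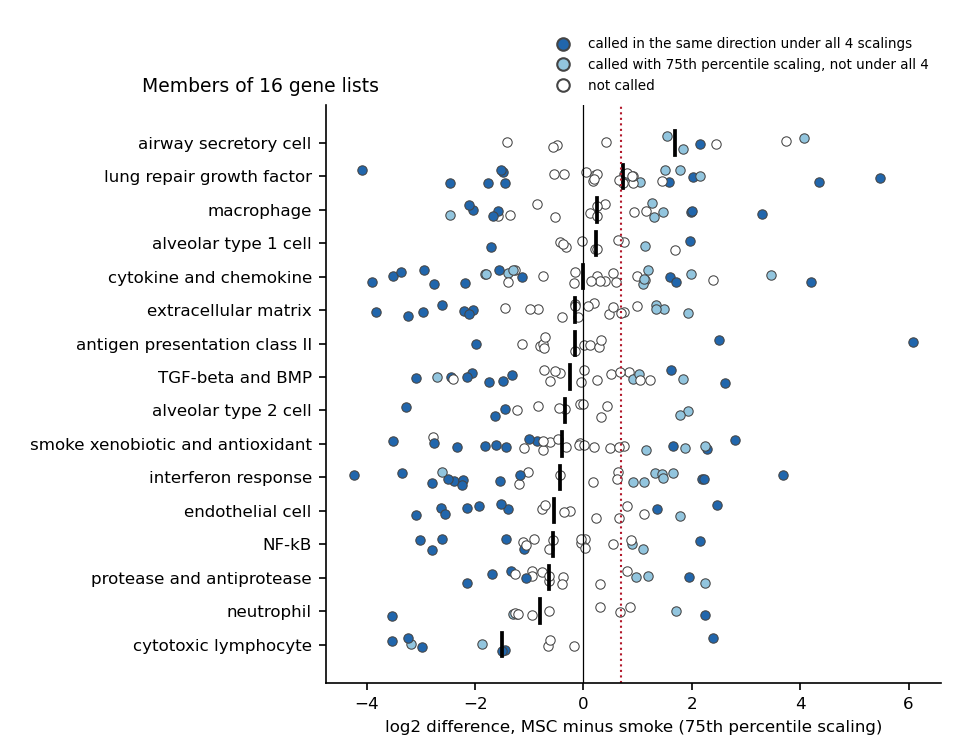
Log2 difference between MSC-treated and untreated smoke lung for each measured member of 16 gene lists, with 75th percentile scaling. Points are genes, black bars are list medians, the dotted line is the median of all features (0.68) and dark points were called in the same direction under all 4 scalings (percentile, quantile, loess and normexp). Dark points lie on both sides of 0, more of them to the left. Over all features, 24.5% were called higher and 11.7% lower under all 4 scalings. The lists were chosen with earlier results of these data known.

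Epithelial markers were less uniform, and the MSC arrays differed from each other. The summed signal of alveolar type 2 markers was 1503 and 763.9 times the 75th percentile on the MSC arrays against 418.9 and 443.8 in smoke, that of alveolar type 1 markers 542.7 and 176.8 against 264.3 and 302.1, and that of airway secretory markers 94.6 and 284.4 against 93.1 and 90.9. Type 2 cells make surfactant. Sftpc, the gene of surfactant protein C, was at 7.37 and 7.49 in smoke and 9.80 and 8.92 in MSC lung, 1.93 higher (SE 0.37, adjusted p = 0.00319), and Sftpd was 1.78 higher (SE 0.42, adjusted p = 0.00805). The order of probes within an array ran the other way: Sftpc was the brightest measured probe on all 6 smoke, naive and EV arrays and ranked 8 and 12 on the MSC arrays, and Sftpd went from 28 and 23 in smoke to 29 and 70. Quantile normalization called Sftpc lower (-1.07, adjusted p = 0.00794) and turned Sftpd (-0.44, 0.248), with loess neither was called (0.15 and 0.32), and on the E1A scale they stood at -2.09 and -2.24. Their direction thus depended on the processing. Sftpd was lost without smoke replicate 1 (adjusted p = 0.0501). Napsa, a protease that processes surfactant proteins, and Slc34a2, a phosphate carrier, fell by 1.45 (adjusted p = 0.019) and 1.63 (adjusted p = 0.0226). Lpcat1, an enzyme of surfactant lipid synthesis, was not well above background on either MSC array and was at least 9.67-fold lower. Napsa was lost without smoke replicate 1 (0.10) or MSC replicate 2 (0.0822), and Slc34a2 without either smoke array (0.0661 and 0.0961) or MSC replicate 2 (0.0731). The 13 measured type 2 markers of 16 thus gave 3 lower, 2 higher and 8 not called, against 7 lower and 0 higher with quantile normalization, 6 and 0 with loess, and 9 and 1 with normexp. Without smoke replicate 1 each direction had 1 call, and without MSC replicate 2 there was 1 lower call.

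Of 12 measured type 1 markers of 12, 9 were not called, and 5 were lower and 1 higher with quantile normalization. Aqp5, the water channel of type 1 cells, was at 3.88 and 3.83 in smoke and 2.77 and 1.53 in MSC lung, and fell by 1.71 (SE 0.45, adjusted p = 0.0131), a call lost without smoke replicate 1 (0.0626). Rtkn2 was 1.97 and the tight junction gene Cldn18 1.14 higher, and both turned on the E1A scale (-2.04 and -2.87). Cldn18 was lost without either smoke array (0.0886 and 0.155) and without MSC replicate 1 (0.162), and with normexp (0.18, adjusted p = 0.593), quantile (0.66, 0.123) and loess processing (0.65, 0.153). Single arrays decided this list: without MSC replicate 2 there were 8 higher calls, without MSC replicate 1 there were 5 lower calls, and without either smoke array there was 1 higher call. In the airway secretory list, 4 of 10 measured markers of 14 were higher, a share near the 42.1% of all features, and 6 were not called. Quantile normalization and normexp called 2 of them higher and loess 1. Aldh1a1, a retinal dehydrogenase, was at 3.59 and 3.75 against 5.11 and 5.33 (1.55 higher, adjusted p = 0.00265), and Spdef, the regulator of goblet cells, at -1.02 and -0.31 against 1.89 and 1.08 (2.15 higher, adjusted p = 0.00301). Spdef held under all 4 scalings, while Aldh1a1 was lost with normexp (0.46, adjusted p = 0.0645), quantile (0.64, 0.0984) and loess processing (0.57, 0.142). They stood at -2.46 and -1.86 on the E1A scale. Scgb1a1, the club cell secretoglobin, was at 5.91 and 5.95 in smoke and 5.40 and 7.31 in MSC lung, so the groups overlapped, and it was not called (0.42, adjusted p = 0.585). Without either smoke array or without MSC replicate 2 there were 2 higher airway calls.

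**Figure D4:**
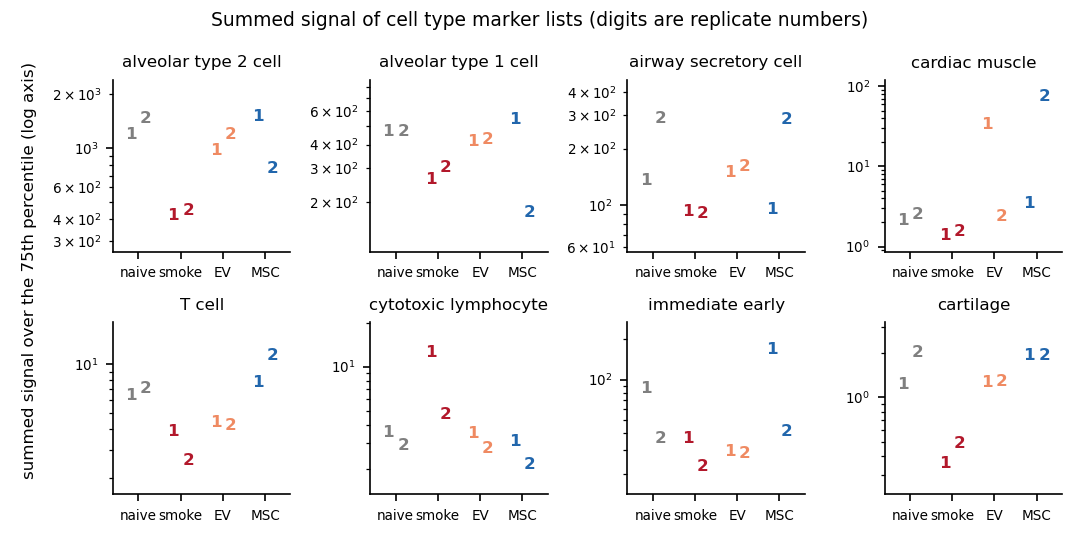
Summed signal of 8 marker lists on each array, relative to the 75th percentile, on a log axis; digits are replicate numbers. The MSC arrays are far apart for cardiac muscle (3.46 and 75.3) and alveolar type 1 cells (542.7 and 176.8). Both lie above both smoke arrays in every panel except those of alveolar type 1 cells and cytotoxic lymphocytes.

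Endothelial markers were mostly lower where they were called: of 18 measured markers of 20, 7 were lower, 3 higher and 8 not called, with a median of -0.53. Eng, a TGF-beta and BMP coreceptor of endothelium, was at 0.79 and -0.31 in smoke and -2.90 and -2.78 in MSC lung, and fell by 3.08 (SE 0.46, adjusted p = 0.00115). Tie1, an endothelial receptor kinase, was at -1.28 and -1.86 against -3.40 and -4.04 and fell by 2.15 (SE 0.34, adjusted p = 0.0015). The junction genes Cldn5 and Esam fell by 2.63 and 1.94, the sialomucin gene Emcn by 2.55, the transcription factor Erg by 1.40 and the VEGF receptor Flt1 by 1.52. All 7 held under all 4 scalings. Pecam1 (2.47) and Cdh5 (1.36), which encode adhesion molecules between endothelial cells, and Kdr (1.79), the main VEGF receptor, were higher and stood at -1.54, -2.65 and -2.22 on the E1A scale; Pecam1 and Cdh5 held under all 4 scalings. Quantile normalization and loess each gave 10 lower and 2 higher calls. Without either smoke array or without MSC replicate 2 there were 4 lower calls, and without MSC replicate 2 there were 6 higher calls. Lyve1 and Ramp2, both among the 10 largest falls within the rule for named genes described below, are also expressed in endothelium. Lyve1, a hyaluronan receptor of lymphatic vessels, went from 1.96 and 2.15 to -2.18 and -3.02 and fell by 4.66 (SE 0.44, adjusted p = 0.00026). Ramp2, which pairs with the adrenomedullin receptor, went from 2.88 and 2.42 to -0.74 and -2.11 and fell by 4.08 (SE 0.50, adjusted p = 0.000515).

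All 26 genes of the TGF-beta and BMP list were measured; 8 were lower, 5 higher and 13 not called, with a median of -0.24. Among the ligands, Bmp4 was at 2.36 and 2.07 in smoke and 0.02 and 0.28 in MSC lung and fell by 2.06 (SE 0.34, adjusted p = 0.00177). Bmp6 and Tgfb1 fell by 2.44 and 2.15. Inhba, a subunit of activin, was at -5.16 and -5.27 against -3.40 and -1.82 and 2.61 higher (SE 0.49, adjusted p = 0.00296), but -1.41 on the E1A scale. Among the receptors, Eng (above), Tgfbr2 and Acvr1 were lower and the other receptor genes were not called with their brightest probe. Dimmer probes of some were called, for Bmpr2 at -4.47 and -2.96, for Tgfbr1 at 4.35 and for Bmpr1a at 1.92 and -1.10. Tgfbr2 fell by 1.48 with its brightest probe, while its second probe was 2.17 higher (adjusted p = 0.00104). Acvr1 was not well above background on either MSC array, was at least 3.04-fold lower and stood at 0.63 with normexp. Of the intracellular members, Smad1 and Smad5, which carry BMP signals, were 1.83 and 1.61 higher, while Smad6, an inhibitor of them, fell by 1.32. The Smad5 and Smad6 calls held under all 4 scalings, and the Smad1 call did not. In the whole list 7 lower and 2 higher calls held. Quantile normalization gave 10 lower and 3 higher calls, loess 11 and 3, and normexp 12 and 6. Smad5 stood at -2.41 on the E1A scale, where all 26 were lower. Higher calls numbered 2 without smoke replicate 1, 3 without smoke replicate 2 or MSC replicate 1 and 9 without MSC replicate 2.

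Growth factors of lung repair and their receptors had 9 higher, 6 lower and 15 uncalled members of 30 measured, and their median of 0.74 lay beside the 0.68 of all features. Over all features 42.1% were higher and 16.6% lower. The split of this list depends on the scaling: quantile normalization gave 4 higher and 6 lower calls (median -0.21), loess 5 and 7 (-0.26), and normexp 11 and 10 (0.17). Angpt1, a ligand that steadies vessels, was at -0.82 and -0.77 in smoke and -2.67 and -3.86 in MSC lung and fell by 2.47 (SE 0.46, adjusted p = 0.00281). Fgfr1, an FGF receptor, was at -1.52 and -1.62 against -3.22 and -3.44 and fell by 1.76 (SE 0.28, adjusted p = 0.0015). Areg, an EGF receptor ligand, fell by 4.09. Igf1 fell by 1.45 with its brightest probe, while its 5 probes ranged up to 3.63 in the other direction. Fgf1 was at -3.03 and -2.86 against -0.97 and -0.88, 2.02 higher, and Erbb2, an EGF receptor family member, was 1.58 higher; on the E1A scale they were at -2.0 and -2.44. Wnt7b, an epithelial Wnt ligand, was not well above background on either smoke array and at least 28.8-fold higher in MSC lung, and was called higher under all 4 scalings, as were Fgf1, Erbb2 and Fgf10. Hgf, a factor that MSCs are known to release, differed by 0.17 (adjusted p = 0.704).

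Of 28 extracellular matrix genes 25 were measured, with 7 lower, 4 higher and 14 not called and a median of -0.15. The lower ones were mostly genes of the elastic fibre and its crosslinking. Mfap4 was at 3.11 and 1.87 in smoke and -0.33 and -0.60 in MSC lung, beside -0.58 and -0.66 in EV and -0.68 and -0.75 in naive lung, and fell by 2.96 (SE 0.41, adjusted p = 0.000869). Fbn1, which encodes fibrillin-1, and Fbln5, fibulin-5, fell by 3.82 and 2.21, and the lysyl oxidase genes Loxl1 and Loxl2 by 3.24 and 2.11. Eln, the gene of elastin itself, differed by 0.74 (adjusted p = 0.0992). Fn1, the gene of fibronectin, was at 1.53 and 1.65 in smoke and -0.29 and -0.61 in MSC lung, lower than in EV (1.26 and 1.06) and naive lung (0.93 and 1.0), and fell by 2.04 (SE 0.27, adjusted p = 0.000723). Sparc, a matricellular protein, fell by 2.61. All 7 held under all 4 scalings. Col1a1, a chain of collagen I, was at 0.83 and 1.59 against 2.74 and 3.52 and 1.93 higher (adjusted p = 0.00612), but a second probe was at -0.67, its partner chain Col1a2 differed by 0.19 it was lost with normexp (0.90, adjusted p = 0.0665) and it stood at -2.09 on the E1A scale. Postn, periostin, was 1.49 higher, stood at -2.53 on the E1A scale, and was lost without either smoke array (0.0842 and 0.0668) or MSC replicate 1 (0.0649) and with normexp (0.55, 0.150); without any 1 of these arrays the list had 1 higher call.

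Proteases and their inhibitors had 4 lower, 4 higher and 10 uncalled members of 18 measured, with a median of -0.64. Quantile normalization gave 8 lower and 1 higher, loess 9 and 1, and normexp 7 and 5. Ctsl, the lysosomal protease cathepsin L, was at 2.44 and 2.27 in smoke and 0.47 and -0.05 in MSC lung and fell by 2.15 (SE 0.33, adjusted p = 0.00122). Cst3, cystatin C, an inhibitor of such proteases, was at 5.06 and 5.02 against 3.0 and 3.69 and fell by 1.69 (SE 0.31, adjusted p = 0.00291). Adam17, which sheds TNF from the cell surface, fell by 1.34 and the inhibitor Timp1 by 1.05. The membrane-type metalloprotease Mmp14 was 1.94 higher and Mmp2, which Mmp14 activates, 1.19 higher; on the E1A scale they were at -2.08 and -2.82. A second Mmp2 probe was at -2.73, and its call was lost without smoke replicate 1 (0.0654), where the list had 2 higher calls, and with normexp (0.16, adjusted p = 0.612), quantile (0.56, 0.147) and loess processing (0.59, 0.106). Mmp12, the macrophage elastase tied to smoke emphysema, was not well above background on either MSC array and not called (0.80, SE 1.21, adjusted p = 0.593). It was called higher with normexp (1.75, adjusted p = 0.000123) but not with quantile (-0.49) or loess processing (-0.54).

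Genes of the response to oxidants and xenobiotics included 8 lower, 6 higher and 14 uncalled members among 28 measured of 31, with a median of -0.40. Quantile normalization gave 15 lower and 3 higher calls (median -1.0), loess 16 and 3 (-1.07), and normexp 14 and 7. Nfe2l2, which encodes NRF2, fell by 1.00 and Keap1, which holds it in check, by 2.76. Of the enzymes, Gpx3, the secreted glutathione peroxidase, was at 1.07 and -0.20 in smoke and -2.87 and -3.31 in MSC lung, close to EV (-2.89 and -2.88) and naive lung (-3.13 and -3.06), and fell by 3.52 (SE 0.43, adjusted p = 0.000514). Gsta1, a glutathione transferase, was at 2.88 and 2.75 against 1.01 and 1.39, below its EV (2.41 and 2.35) and naive (1.98 and 2.36) levels, and fell by 1.61 with one probe and 2.64 with the other. Txnrd1, Prdx1 and Sod3 fell by 2.34, 1.82 and 1.43. The peroxidase genes Gpx2 and Gpx4 were 2.81 and 2.28 higher and -1.21 and -1.74 on the E1A scale, and a second Gpx4 probe was at -2.59. Nqo1, a standard target of NRF2, differed by -0.75 (SE 0.38, adjusted p = 0.131). It was called lower with normexp (-0.87, adjusted p = 0.0156), quantile (-1.18, 0.0272) and loess processing (-1.21, 0.0297). Of 6 measured genes of the aryl hydrocarbon receptor axis, Cyp1b1 was 1.88 higher (0.99 and not called with quantile normalization) and 5 were not called. Quantile normalization called 3 of the 6 lower and 0 higher, and loess 4 and 0. Cyp1a1, which smoke hydrocarbons induce through that receptor, was at -4.67 and -4.21 in smoke and not well above background on either MSC array. It was at least 2.81-fold lower, with adjusted p = 0.0975. Quantile normalization (-4.35, adjusted p = 0.0214) and loess (-4.16, 0.024) called it lower, while it stood at 0.51 with normexp. Without smoke replicate 1 the list had 4 lower calls.

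The remaining named genes with large falls included Fgg, the gamma chain of fibrinogen. Fgg went from 0.97 and -0.29 in smoke to -4.07 and -4.89 in MSC lung and fell by 4.82 (SE 0.81, adjusted p = 0.00189). Its naive levels were -3.22 and -0.67, so naive replicate 2 came close to the smoke arrays. Xdh, xanthine dehydrogenase, a source of superoxide and urate, went from 1.76 and 1.08 to -3.15 and -2.11 and fell by 4.05 (SE 0.41, adjusted p = 0.000294). Mfge8, a bridge for the uptake of dying cells, went from 1.81 and 1.28 to -3.26 and -1.39 and fell by 3.87. Fibin, Pxdc1, Fam3a and Depp1 fell by 4.06, 4.0, 3.93 and 3.86. Tmem252, Fundc2 and Gucy1b1, the last a subunit of the nitric oxide receptor, were not well above background on either MSC array and were at least 27.1-fold, 24.8-fold and 23.6-fold lower. Of the 40 named genes called lower, 25 were chosen on the percentile scale alone, and all 25 were also called lower under the other 3 of the 4 scalings. Of 31 higher ones chosen in that way, 20 were. Over all features, 3042 of 4324 lower and 6364 of 10929 higher calls held likewise. Quantile normalization and loess also lower the median over all features, to -0.019 and -0.046, which favours lower calls. The named genes had small p or were set whatever their values, so this split is no separate test of direction.

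Most named genes with large higher differences, Arid3a and Pgm5 apart, were dim on the smoke arrays. RT1-CE5, a gene of the rat MHC class I region, was at -6.09 and -5.94 in smoke, 3.44 and 3.53 in MSC lung, 3.16 and 3.31 in EV lung and 3.44 and 2.75 in naive lung, a difference of 9.50 (SE 0.31, adjusted p = 8.68e-05). The smoke arrays stood apart from the other 6 arrays for this gene. MHC class I genes have near-identical copies, so the reading of this probe is uncertain. Ephb2, an ephrin receptor, was at -6.80 and -6.09 in smoke and 1.47 and 1.71 in MSC lung (8.04 higher, SE 0.40), and the transcription factor genes Arid3a and Zfp507 were 7.64 and 7.57 higher. Ly49s5, of the killer cell lectin-like receptor family, was 7.44 higher and H2ap, Hs3st3b1, Pgm5 and Ptprv 6.14, 6.73, 7.15 and 6.06 higher, with second probes of Zfp507 and Pgm5 at 2.38 and 0.52. Glycam1, a mucin-like ligand for lymphocyte homing, was at -1.66 and 3.66 on the MSC arrays, so the 2 replicates were further apart than most groups. Among genes not well above background in smoke, Cyp4a2, a fatty acid hydroxylase, was at least 169-fold higher and the olfactory receptor genes Or9q1 and Or4p7 at least 115-fold and 80.1-fold. The uncharacterised LOC102554142 and LOC102554073 were at least 149-fold and 97.0-fold higher. These bounds hold on the percentile scale only. The genes of this paragraph were chosen partly by their sign or calls under other scalings, so that they hold there is no separate evidence.

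**Figure D5:**
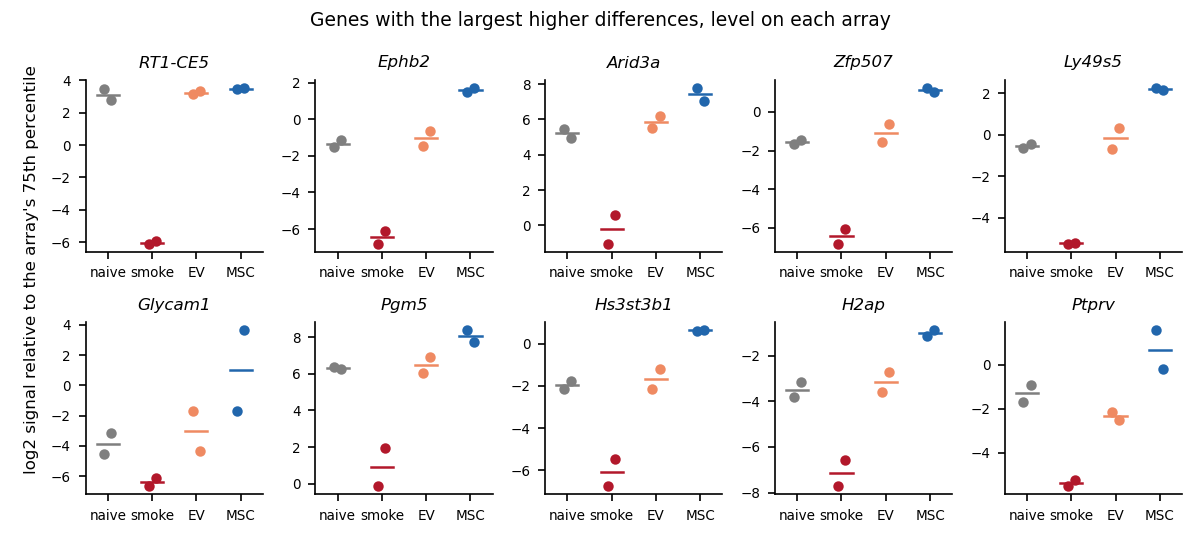
Level of the 10 genes with the largest higher differences on each of the 8 arrays, as log2 signal relative to the 75th percentile; points are arrays and lines are means of 2. The smoke arrays lie below the other 6 arrays in each panel, and the MSC arrays lie near or above the EV and naive arrays.

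Values that move with the higher calls were measured beside them. Of 96 ERCC probes, which match synthetic RNAs, 14 were well above background on both MSC arrays and 8 on both smoke arrays. On the percentile scale all 14 were higher on both MSC arrays than on both smoke arrays. Their median difference was 3.82 on that scale, 0.28 before scaling and -0.19 on the E1A scale. The 14 were picked by the MSC arrays, where the percentile scale raises an even control signal. Their direction on that scale was thus largely set beforehand. Of 191 measured olfactory, vomeronasal and taste receptor genes, a list chosen after the values were seen, 151 were higher and 2 lower on the percentile scale (median 2.07), and 9 were higher and 138 lower on the E1A scale (median -1.94). Of markers of tissue that neighbours the air spaces, 6 of 7 measured cartilage genes and 5 of 8 cardiac muscle genes were higher, beside 42.1% of all features. Quantile normalization and loess each called 5 cartilage and 0 cardiac genes higher, and normexp 7 and 6. The cardiac signal sat on single arrays: it was 75.3 on MSC replicate 2 and 33.7 on EV replicate 1, but 3.46 on MSC replicate 1 and between 1.38 and 2.52 on the smoke, naive and other EV arrays. Without MSC replicate 1 there were 7 higher cardiac calls, and without any 1 of the other 3 arrays 0. The summed signal of erythroid markers was 1289 and 828.1 in MSC, 123.7 and 130.9 in smoke, 441.8 and 423.2 in EV and 511.2 and 636.6 in naive lung. Of 7 measured erythroid markers, 2 were higher, 1 lower and 4 not called. The part of these values in the results was not tested.

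The MSC arrays were also set beside the other groups of the fit. Against EV lung, 1791 features were called (6.89%), 1332 of them higher in the MSC group. Against naive lung 1 feature was called (0.00385%), Gpr158, an orphan receptor gene, which was not well above background on either MSC array and at least 5.11-fold lower (adjusted p = 0.0469), while 5640 features (21.7%) had an unadjusted p under 0.05. A missing call does not show that MSC and naive lung are alike, and these comparisons share arrays with the one above, so their values are given side by side only. Relative to naive lung, Rela differed by -0.33, Cxcl1 by -1.12, Il33 by -1.04 and Lcn2 by -1.89, all uncalled. Of the named genes, 17 differed between MSC and EV lung, 8 of them lower and 9 higher in MSC lung, with Cxcl1, Il33, Lcn2 and Fn1 among the lower ones. Most named genes were chosen by values on the same MSC arrays, which favours such calls.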

How the data were processed

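The deposited files hold the intensity of each spot on 8 1-colour arrays (design 074036), read with Agilent Feature Extraction 10.7.3.1, per the file headers: a background-subtracted, spatially detrended processed signal, and the median of spot and local background. The other deposited values per spot are the scanner software's flags for signal well above background, saturation and outliers, coded 0 or 1. What the authors did after scanning is not given in the sources used.

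Control and outlier spots were left out (4259 of 62976 spots were controls), replicate spots were averaged, and a probe's level was its log2 processed signal relative to the array's 75th percentile. Between 48.2% and 71.4% of probes were well above background on an array, no spot was saturated, and replicates correlated at 0.951 to 0.977 across probes; 2 arrays per group limit the precision. Probes well above background on both smoke or both MSC arrays were kept, 29300 of 45598. RefSeq accessions named 21215 probes (16667 symbols, GRCr8 table), and 24383 kept the identifier of the design. The brightest probe stood for a gene (2687 symbols had several kept probes, and 325 genes had probes called in opposite directions), giving 25980 features, 12681 with a symbol.

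Group means of all 4 groups were fitted with limma (version 3.58.1, under R 4.3.3; Python 3.11.15 and matplotlib 3.10.9 drew the figures), with 4 residual degrees of freedom, a prior of 3.60 and Benjamini-Hochberg adjustment at 0.05 over all features, 2-sided. A bound is the mean of the bright group over, per array of the dim group, the higher of the probe's own signal and the lowest signal well above background. For E1A scaling, the mean log2 level of 7 of 10 E1A control probes took the place of the percentile. The fit was tested on simulated data. The alternatives are normexp with an offset of 50 (on the median spot signal), quantile, cyclic loess and E1A scaling, the filter on dim probes, the mean of a gene's probes, the arrays, prior and weights of the fit, a replicate block and each array left out.

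The members and the 37 gene lists (614 genes, 520 measured, 16 main lists) were chosen with earlier results of these data known. The rule for named genes took the 10 highest and 10 lowest genes called under percentile, quantile and loess scaling with the same sign on the E1A scale and on all kept probes, the 5 largest bounds each way, the 2 lower and 2 higher called members of each main list with the smallest p, and 12 genes whatever their values (Rela, Cxcl1, Il33, Il1b, Tnf, Ccl2, Prkcz, Cyp1a1, Nqo1, Mmp12, Scgb1a1 and Sftpc). Some genes are not reported here. Other list members in the text were chosen after their values were seen.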

Additional observations from a re-analysis of the deposited data

Results flagged for a closer look

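The MSC and EV groups share the smoke arrays as their reference, so the difference between both treatments was tested directly, as MSC minus EV. For 17 of the 92 named genes this difference passed limma's test, with adjusted p between 0.0381 and 0.0446, in a comparison that called 6.89% of all features. Most named genes were chosen by their values in MSC against smoke lung, and the same MSC arrays enter this test. That choice favours calls here and the same direction in both comparisons, so neither is separate evidence. The lower ones in MSC lung were, with their log2 differences, Lyve1 -2.88, Cxcl1 -2.10, Fibin -2.10, Lcn2 -2.09, Fn1 -1.61 and Il33 -1.55, and Gucy1b1 and Fundc2, which were not well above background on either MSC array and at least 6.5-fold and 7.13-fold lower than in EV lung (fitted at -3.73 and -3.25). The neutrophil chemokine gene Cxcl1, the alarmin gene Il33, the lymphatic marker gene Lyve1, fibronectin (Fn1) and Lcn2 are among them, and their direction is that of MSC against smoke lung. The higher ones were Ptprv 3.03, Csf3 2.79, LOC102554142 2.77, Ephb2 2.63, Ly49s5 2.38, Or9q1 2.31, Hs3st3b1 2.28, Zfp507 2.23 and H2ap 2.15. The sign of all 17 differences was kept under the quantile, loess and normexp alternatives, and on the E1A scale, where one constant moves every difference. All 17 were also called after quantile normalization, but 8 with E1A scaling, 14 under normexp and 15 under cyclic loess. With array weights or without the filter on dim probes the comparison of MSC and EV lung had 0 calls, so these differences rest on the settings of the fit. Most or all calls of this comparison were also lost with any single smoke or MSC array left out.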

How the results depend on the processing

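For the named genes chosen on the percentile scale alone, calls in MSC against smoke lung were compared with normexp, quantile and cyclic loess processing. There, 25 of 25 lower and 20 of 31 higher calls held. Over all features, 3042 of 4324 lower and 6364 of 10929 higher calls did. The number of calls over all features also moved with the settings. In MSC against smoke lung, 15253 calls became 23179 with E1A scaling and 24307 without the filter on dim probes, and ranged from 10292 to 14968 with a smoke or MSC array left out. The share of calls that were higher, 71.7%, was 49.4% with quantile normalization, 48.3% with cyclic loess, 0.876% with E1A scaling, 84.1% without the filter on dim probes and 75.5% with probes detected on all 4 arrays. The median over all features, 0.68, was 0.78 with normexp, -0.019 with quantile normalization, -0.046 with cyclic loess, -3.33 with E1A scaling, 1.52 without the filter and 0.87 with probes detected on all 4 arrays.

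In MSC against EV lung, 1791 calls became 10422 with E1A scaling, 3162 with probes detected on all 4 arrays, and 0 with array weights or without the filter. Leaving out any single smoke or MSC array also removed most or all of them. In MSC against naive lung, 1 call became 237 with normexp, 173 with quantile normalization, 1464 with E1A scaling, 41 with probes detected on all 4 arrays, 70 with a trended and robust prior, and 0 with array weights or without the filter. The cause of these shifts was not tested.

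The replicate numbers were not shown to pair the samples: deviations of same-numbered smoke and MSC arrays correlated at -0.14, and those of the other pairs of groups between -0.06 and 0.14. With the replicate number as a block there were 15050 calls in MSC against smoke lung, 916 in MSC against EV lung and 0 in MSC against naive lung, and with the MSC numbers crossed, an alternative chosen after seeing the data, 15375, 2192 and 0. The block ended the calls on RT1-Da (adjusted p = 0.0501) and Il1b (0.0557) and added one on Cyp1a1 (0.0465).

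E1A scaling moves every difference by -4.02, so the 33 named genes with a smaller higher difference turned: Map3k7 -1.86, Myd88 -2.91, Irf8 -0.34, Oas2 -1.79, Ncf1 -1.78, S100a9 -2.32, Cd163 -0.73, Mertk -2.03, Cd8b -1.62, Cd40 -1.51, Col1a1 -2.09, Postn -2.53, Mmp14 -2.08, Mmp2 -2.82, Sftpc -2.09, Sftpd -2.24, Rtkn2 -2.04, Cldn18 -2.87, Aldh1a1 -2.46, Spdef -1.86, Pecam1 -1.54, Cdh5 -2.65, Smad5 -2.41, Inhba -1.41, Fgf1 -2.0, Erbb2 -2.44, Gpx4 -1.74, Gpx2 -1.21, Il1b -2.83, Tnf -2.92, Ccl2 -3.47, Mmp12 -3.22 and Scgb1a1 -3.59. Quantile normalization turned Sftpc to -1.07, Sftpd to -0.44, Ccl2 to -0.20, Mmp12 to -0.49 and Scgb1a1 to -1.28. Cyclic loess turned Ccl2 to -0.42, Mmp12 to -0.54 and Scgb1a1 to -0.86, normexp turned Cyp1a1 to 0.51 and Scgb1a1 to -0.63, the mean of a gene's probes turned Map3k7 to -0.28, Mmp2 to -0.77 and Gpx4 to -0.16, and leaving out MSC replicate 2 turned Ccl2 to -0.20 and Scgb1a1 to -0.54 (1.29 and 1.38 without MSC replicate 1). A lone array of a group was given the spread of the other groups. Genes near background on the dimmer MSC arrays have only a bound there.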
